A study of Pyrocoelia pectoralis with 6 samples.

Results

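The circadian clock and opsin genes of a male firefly, Pyrocoelia pectoralis, were compared between its light-producing organ and a tissue that makes no light. Genes were taken by the words of their deposited descriptions, such as period circadian protein, protein timeless, cryptochrome, opsin and rhodopsin, and 10 of 12533 genes matched. Of these, 5 were described as clock genes and 3 as opsins. The other 2 were matched by the word rhodopsin alone, and are named for proteins that act on rhodopsin or on a phosphodiesterase. No row was described as protein cycle (0 matches), so the partner of CLOCK in the fly is not analysed here. Descriptions rest on similarity to proteins of other species, so each gene is given with its identifier.

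Messenger RNA was measured in 3 libraries per organ, luminous or non-luminous, all from males. The labels name no age, genotype, treatment, hour or lighting at dissection, and leave unstated where on the body the non-luminous tissue lay. Nor is it stated if each library is a different animal or a pool. Each p-value therefore covers only library-to-library spread, part of which may be technical. Values are FPKM, reads scaled by the length of the gene and the size of the library, so levels can be set side by side between genes.

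In insects, the clock runs on a loop of transcription. CLOCK and CYCLE switch on period and timeless, whose proteins accumulate, enter the nucleus and shut CLOCK and CYCLE off, and cryptochromes set the loop by light or take part in the repression. In Drosophila the loop runs in brain neurons and also in many peripheral tissues. Opsins are receptors that bind retinal and turn light into a signal through a G protein, and are best known from the photoreceptor cells of the eye. Fireflies flash or glow at set hours, and whether a clock runs in the lantern is a question these single measurements cannot answer, since RNA of clock genes changes over the day.

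The libraries held between 18.04 and 20.42 M reads (M for mega). Over the 9863 genes that averaged 1 FPKM or more, the correlation of log2(FPKM + 1) between libraries of 1 organ was 0.948 to 0.981. Between organs it was 0.863 to 0.924. The limma test covered the same 9863 genes, and called 26.6% of them at an adjusted p under 0.05, with 9.63% higher and 17.0% lower in the luminous organ. Of the 10 genes, 6 passed this minimum and 4 did not, and those 4 were read by their read numbers.

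Clk (RI129_008982), described as circadian locomoter output cycles protein kaput, the activator of the loop, was the member called by limma. It stood at 8.99, 7.59 and 11.2 FPKM in luminous replicates 1, 2 and 3, and at 4.87, 6.38 and 4.44 FPKM in the non-luminous replicates. Every luminous library was above every non-luminous one, with the highest value in luminous replicate 3. The means were 9.25 ± 1.80 and 5.23 ± 1.02 FPKM (SD, n = 3), a ratio of 1.77. The reads behind them were 306, 263 and 359 in the luminous libraries against 156, 199 and 136 in the others. On the log2(FPKM + 1) scale, the non-luminous mean taken from the luminous one gave a difference of 0.72 (SE 0.21, 95% interval 0.23 to 1.20, limma adjusted p = 0.0416).

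The call for Clk was weak. Leaving out luminous replicate 1 or 3, or non-luminous replicate 1, 2 or 3, ended it, with limma adjusted p of 0.0647, 0.123, 0.122, 0.0558 and 0.140 in that order. So did a fit with no filter on low values (0.0696), where 12533 genes were tested. Its difference was not unusual in size: 863 tested genes, or 8.75%, were higher in the luminous organ by more. Genes lower by as much were not counted. Deposited values had a median difference of -0.09 over all tested genes, and quantile normalization moved that median to 0.07. Relative to the median, Clk was higher by 0.81 as deposited, by 0.81 after median-of-ratios rescaling and by 0.87 after quantile normalization.

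**Figure D1:**
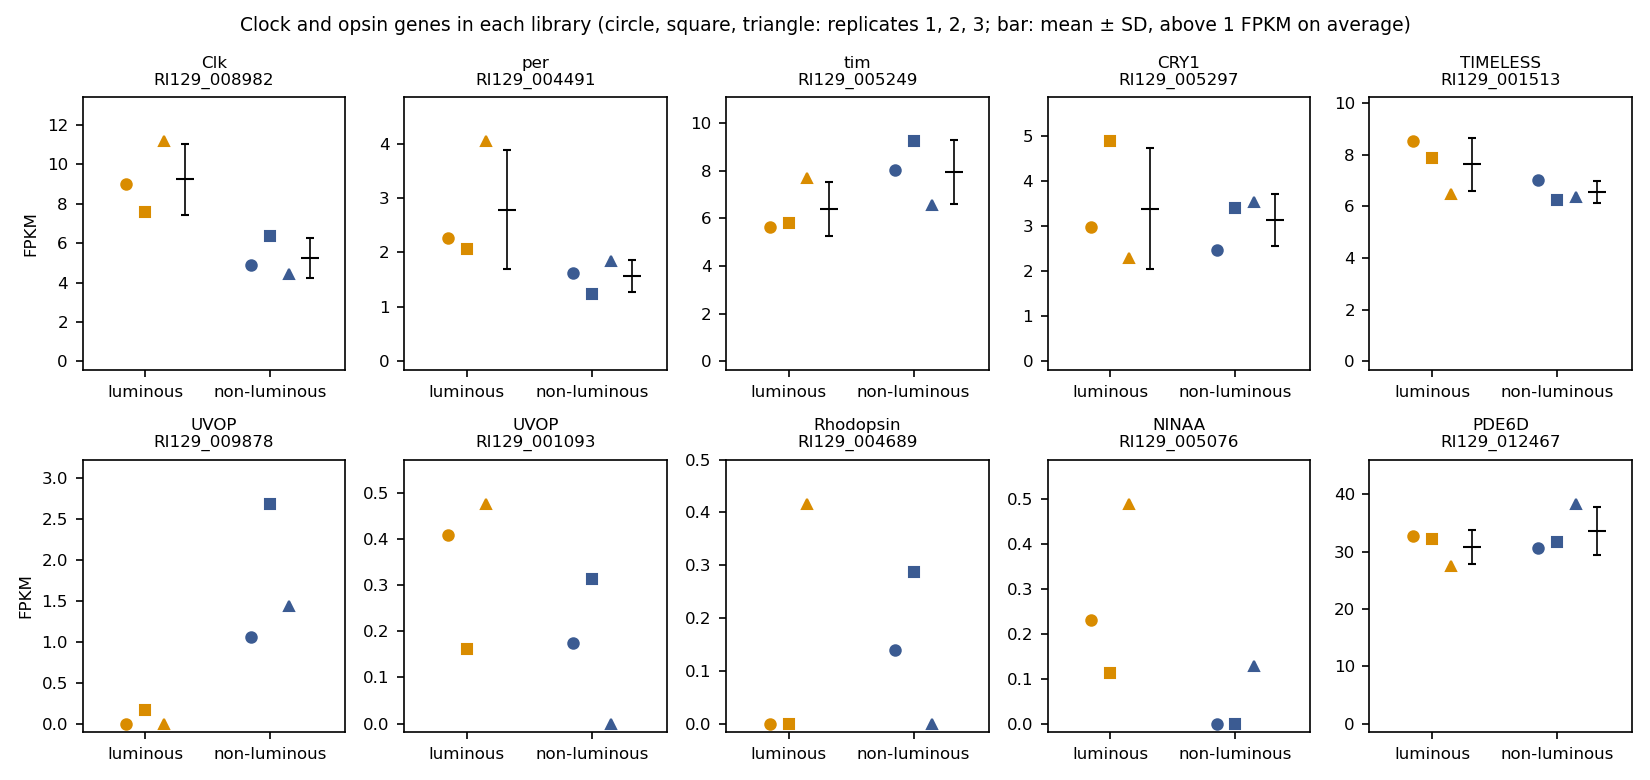
FPKM of the 10 clock and opsin genes in each library, with 1 panel per gene, its own linear axis, and mean ± SD (n = 3) for genes above 1 FPKM on average. The luminous values of Clk lie between 7.59 and 11.2 FPKM, all above the non-luminous values, and UVOP RI129_009878 shows the opposite order.

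The genes of the repressing arm did not move with Clk as a group. The period gene, per (RI129_004491), codes for a repressor that enters the nucleus with TIMELESS. It stood at 2.26, 2.05 and 4.04 FPKM in the luminous libraries and at 1.62, 1.24 and 1.84 FPKM in the others. The groups did not overlap, but luminous replicates 1 and 2 lay close to the highest non-luminous value, and luminous replicate 3 lay far above all others. The means of 2.78 ± 1.09 and 1.57 ± 0.301 FPKM (SD, n = 3) gave a log2 difference of 0.53 (SE 0.27, 95% interval -0.10 to 1.17), which did not pass (limma adjusted p = 0.190). Without luminous replicate 3 the difference was 0.30 (limma adjusted p = 0.464). Its spread in the luminous organ, a coefficient of variation of 39.2%, stood beside 8.21% from counting its reads, and in the non-luminous organ 19.2% stood beside 11.3%.

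The timeless gene, tim (RI129_005249), codes for PERIOD's partner, which light destroys in Drosophila. It went the other way by its means, with overlapping groups. It stood at 5.65, 5.81 and 7.68 FPKM in the luminous libraries and at 8.03, 9.23 and 6.56 FPKM in the others. The log2 difference of -0.28 (SE 0.20, 95% interval -0.74 to 0.19) did not pass (limma adjusted p = 0.343). The interval leaves room for a fall and for a small rise. The value in luminous replicate 3 was again the highest of its organ, as it was for Clk and per.

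CRY1 (RI129_005297), described as cryptochrome-1, belongs to a family with light-sensing and repressing members in insects, and the table does not say which kind it is. It stood at 2.97, 4.87 and 2.29 FPKM in the luminous libraries and at 2.48, 3.39 and 3.53 FPKM in the others. The lowest and the highest value were both luminous, so the groups overlapped, and luminous replicate 2 held the highest value. The log2 difference was 0.05 (95% interval -0.59 to 0.69, limma adjusted p = 0.914). In luminous replicate 3, where Clk, per and tim were highest of their organ, CRY1 was lowest of all 6 libraries.

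TIMELESS (RI129_001513), described as protein timeless homolog, is the relative that in animals acts in replication and chromosome cohesion. It is a different gene from the tim of the clock. It stood at 8.52, 7.88 and 6.50 FPKM in the luminous libraries and at 7.04, 6.24 and 6.38 FPKM in the others, with a log2 difference of 0.19 (95% interval -0.22 to 0.59, limma adjusted p = 0.461). Its order over the luminous libraries was the reverse of tim's, with the lowest value in luminous replicate 3. It was read 3145 times in all, more often than any other member.

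**Figure D2:**
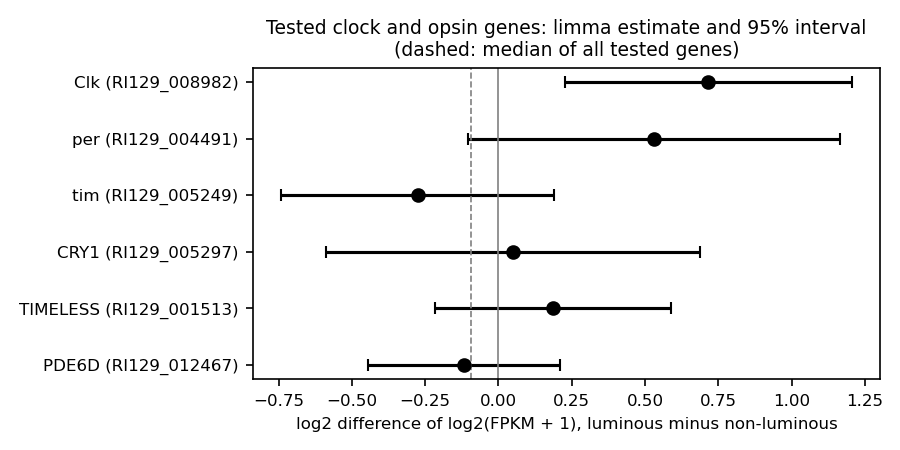
Difference between organs in log2(FPKM + 1), luminous mean less non-luminous mean, for the 6 genes tested, as the limma estimate (point) with its 95% interval (bar), and the median of all 9863 tested genes (dashed line, at -0.09). The interval of Clk lies above 0, from 0.23 to 1.20, and the other 5 intervals cross 0.

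Of the 6 tested genes, limma called 1 higher and 0 lower, or 16.7%, beside 26.6% of all tested genes, and 1 of the 6 had an unadjusted p under 0.05. With no filter on low values, limma called 1 of the 10, UVOP RI129_009878, beside 19.3% of 12533 genes (6.77% higher and 12.5% lower). Without overlap between the organs were 2 of the 6, Clk and per, both higher, beside 46.1% of all tested genes (17.4% higher and 28.7% lower). In either direction together, the 16.7% called and the 33.3% without overlap are below the background; in the higher direction alone the same genes stand beside 9.63% and 17.4%. With 6 genes, nothing is read from these shares. The median log2 difference of the 6 was 0.12, beside -0.09 for all tested genes.

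Clk and per were also set against tim within each library. A ratio of 2 genes in 1 library does not depend on how libraries are scaled. The ratio of Clk to tim was 1.59, 1.31 and 1.45 in the luminous libraries and 0.607, 0.692 and 0.677 in the non-luminous ones. Clk thus exceeded tim in every luminous library, and tim exceeded Clk in every non-luminous one. On the log2 scale the ratio was 0.53 ± 0.14 and -0.61 ± 0.10 (SD, n = 3), a difference of 1.14. This was between 1.07 and 1.21 with any library left out. Among the ratios of all tested genes to tim, 32.6% did not overlap between the organs. In the direction of Clk alone, 22.9% did not overlap, and 8.06% did not overlap and differed by at least as much as Clk.

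The ratio of per to tim was 0.399, 0.354 and 0.526 in the luminous libraries and 0.202, 0.135 and 0.280 in the others. On the log2 scale it was -1.25 ± 0.29 and -2.35 ± 0.53 (SD, n = 3), a difference of 1.10, and the groups did not overlap. The ratio of Clk to per did overlap, at 3.98, 3.69 and 2.76 in the luminous libraries and 3.01, 5.14 and 2.42 in the others. Its log2 means were 1.78 ± 0.28 and 1.74 ± 0.56, a difference of 0.04. In all, 7 ratios among the genes described as clock genes were computed, and these ratios to tim were the 2 without overlap. An exact two-sided permutation test gave p = 0.1 for each of these, the smallest that 3 against 3 libraries allow, and 0.350 after Benjamini-Hochberg adjustment over the 7 ratios.

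**Figure D3:**
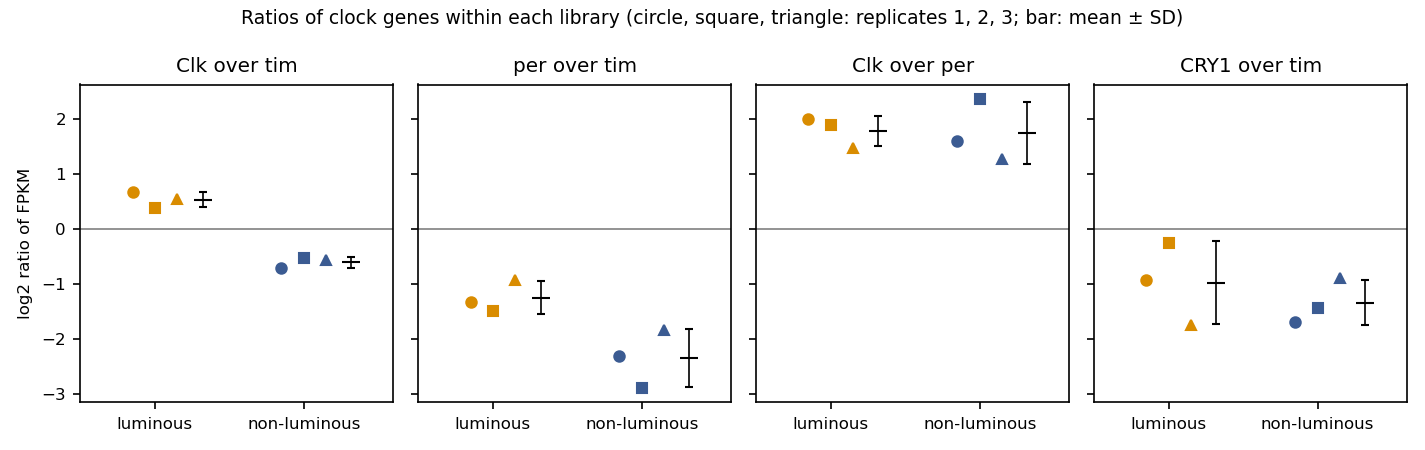
Log2 ratio of FPKM between clock genes within each library, as points per library with mean ± SD (n = 3) beside them, and a line at 0 where both genes are equal. Clk over tim lies above 0 in the 3 luminous libraries and below 0 in the 3 non-luminous ones, and Clk over per overlaps.

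The order of the levels changed accordingly. Among the 5 genes described as clock genes, Clk was highest by its mean in the luminous organ, followed by TIMELESS, tim, CRY1 and per. Neighbours overlapped in that order except tim and CRY1, where every value of tim was above every value of CRY1. In the non-luminous organ the order was tim, TIMELESS, Clk, CRY1 and per. There Clk, with a highest value of 6.38 FPKM, lay above every value of CRY1 and overlapped with TIMELESS, whose lowest value was 6.24 FPKM. The clock genes were modest in level in both organs. By its mean, Clk had 53.2% of the 12533 genes above it in the luminous organ and 62.6% in the non-luminous organ, and per had 67.4% and 75.2%.

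Among the opsins, a gene described as an ultraviolet-sensitive opsin, UVOP RI129_009878, was read almost entirely in the non-luminous organ. It had 23, 57 and 30 reads in non-luminous replicates 1, 2 and 3, and 0, 4 and 0 reads in luminous replicates 1, 2 and 3. All of the 4 luminous reads fell in 1 library. The values were 1.06, 2.69 and 1.44 FPKM against 0, 0.170 and 0 FPKM, so the groups did not overlap. Over the 3 libraries of an organ, 110 reads stood against 4, a ratio of 29.6 per library total with an exact conditional interval of 11.2 to 110 at 95%, which covers counting error only. A count of 0 allows up to 3 reads, which in the shallowest of the 6 libraries would be 0.144 FPKM for this gene.

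With a mean of 0.892 FPKM over the 6 libraries, UVOP RI129_009878 fell just below the minimum of 1 FPKM and was not tested in the main comparison. An exact two-sided permutation test of its means gave p = 0.1, the smallest that 3 against 3 libraries allow. With no filter on low values, limma called it lower (log2 difference -1.33, SE 0.23, adjusted p = 0.0118), where 12.5% of 12533 genes were called lower. A voom fit on read numbers of all genes with at least 10 reads, chosen after seeing the data, gave a lower call (log2 difference -5.13, SE 1.18, limma adjusted p = 0.0173). That fit called 21.8% of 11637 genes, 7.42% higher and 14.3% lower, and Clk was the other member it called. UVOP RI129_009878 passed the 10-read minimum through its non-luminous reads alone, so this call is a description and no further support. The size of the difference rests on the scale, since the luminous organ held so few reads. In the fit with no filter, the call ended when luminous replicate 3 was left out (limma adjusted p = 0.0578) or non-luminous replicate 3 was (0.0606), at differences of -1.29 and -1.39. In bulk tissue, fewer cells that carry a gene and less of its RNA per cell cannot be told apart.

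The other opsins were near the limit of detection in both organs. The gene UVOP RI129_001093, which shares the description of an ultraviolet-sensitive opsin, had 10, 4 and 11 reads in the luminous libraries and 4, 7 and 0 in the others. The groups overlapped, and its 25 reads against 11 gave a ratio of 2.11 in favour of the luminous organ, with an interval of 1.003 to 4.76 for counting error. An exact two-sided permutation test gave p = 0.3. The gene RI129_004689, described as rhodopsin after a mantis protein, had 0, 0 and 3 reads in the luminous libraries and 1, 2 and 0 in the others. These are the smallest numbers that its values allow, as a common factor cannot be seen from so few reads. At this depth no difference was detectable for it. The 2 ultraviolet-sensitive opsin genes thus ran in opposite directions by their means, and the difference between them was not tested.

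**Figure D4:**
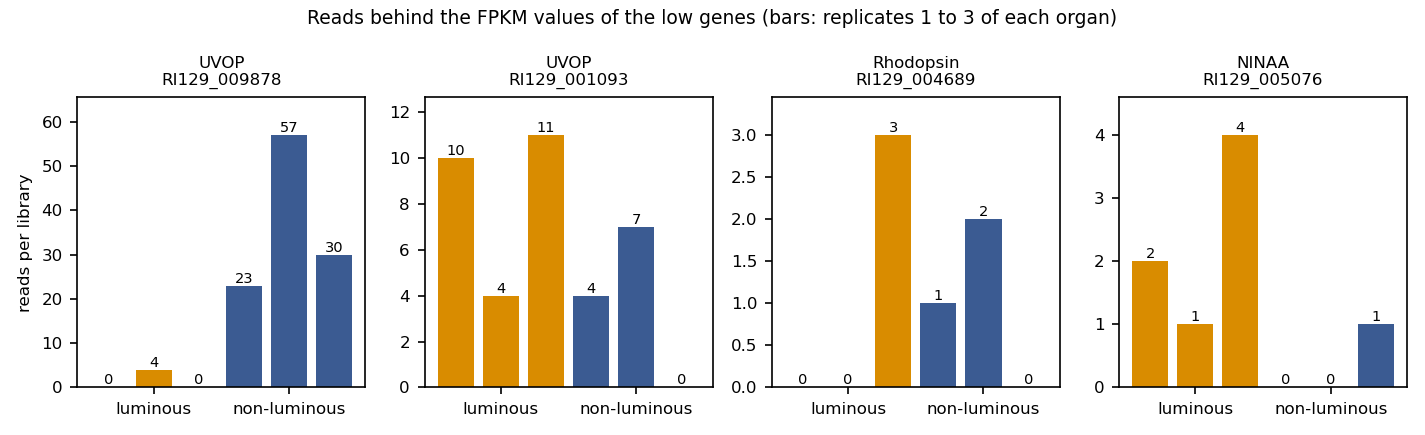
Reads in each library for the 4 genes below 1 FPKM on average, with 1 bar per library and the read number above it. UVOP RI129_009878 has 23 to 57 reads in the non-luminous libraries and 0 to 4 in the luminous ones, and the other 3 genes have 0 to 11 reads in any library.

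NINAA (RI129_005076), described as a rhodopsin-specific peptidyl-prolyl isomerase, is named for a chaperone that in Drosophila carries rhodopsin through the secretory pathway. It had 2, 1 and 4 reads in the luminous libraries and 0, 0 and 1 in the others, 7 against 1, a ratio of 6.51 with an interval of 0.837 to 293.5. An exact two-sided permutation test gave p = 0.2. PDE6D (RI129_012467), described as the delta subunit of a rhodopsin-sensitive phosphodiesterase, is a carrier of lipid-modified proteins in many cell types. It was the most abundant member, at 32.7, 32.3 and 27.5 FPKM against 30.7, 31.7 and 38.4 FPKM, and its log2 difference was -0.12 (95% interval -0.44 to 0.21, limma adjusted p = 0.572).

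Genes matched by words tied to the signal from an opsin onwards were called in both directions. Of 24 tested genes of phototransduction, matched by words, 2 were higher and 2 lower, or 16.7% beside 26.6% of all tested genes, with a median log2 difference of -0.18. None of those called is a classical photoreceptor protein. The higher genes were ARRDC2 (RI129_012010, 1.08, limma adjusted p = 0.0239) and ARRDC5 (RI129_012645, 0.74, limma adjusted p = 0.0211), and the lower ones Arrdc3 (RI129_012680, -0.65, limma adjusted p = 0.0351) and plc-1 (RI129_000898, -1.002, limma adjusted p = 0.0186). The ARRDC proteins are relatives of arrestins that sort membrane proteins, and plc-1 is described as a phospholipase C of the epsilon class. The calls of the 4 genes were each lost with at least 3 settings, among them non-luminous replicate 2 left out, with which 0 of the list were called.

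Genes known from photoreceptors of Drosophila, named here after their values were seen, ranged widely in level. The gene trp (RI129_007643), for a channel of the phototransduction cascade, averaged 0.924 ± 0.922 FPKM in the light-producing libraries and 0.485 ± 0.199 FPKM in the others (SD, n = 3). Luminous replicate 1 alone held 1.97 FPKM. The channel gene trpl (RI129_007644) stood at 0.00445 and 0.0193 FPKM on average, and ninaC (RI129_004672), a myosin of photoreceptors, at 0.128 and 0.116 FPKM. Others were read well in both organs. The gene chp RI129_000949, for the photoreceptor surface protein chaoptin, averaged 9.32 ± 3.53 against 6.43 ± 1.34 FPKM (SD, n = 3). Another gene of that name, chp RI129_000719, was lower in level, at 1.49, 1.85 and 2.59 FPKM against 0.871, 0.882 and 0.701 FPKM. Its groups did not overlap, and its log2 difference of 0.70 was not called (limma adjusted p = 0.0790). It was called higher with no filter, with no trend, after quantile normalization and with either voom fit. The gene inaC (RI129_011710), an eye protein kinase C, averaged 9.53 ± 0.949 against 12.0 ± 2.20 FPKM. The eye-specific diacylglycerol kinase gene rdgA (RI129_001745) averaged 23.3 ± 1.27 against 16.8 ± 2.40 FPKM, without a call (limma adjusted p = 0.0573). The gene norpA (RI129_007386), the phospholipase C of the cascade, averaged 39.3 ± 5.90 in the luminous and 49.7 ± 4.10 FPKM in the non-luminous libraries (limma adjusted p = 0.121).

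Of the 8 eye markers, 5 were tested and limma called 0, with 2 at an unadjusted p under 0.05 and 1 called by voom, and summed levels were 69.4 to 88.9 FPKM in the luminous libraries and 55.7 to 96.3 FPKM in the others. No eye marker was at 0 in every library, but the gene PAX6 RI129_007263, an eye-determining factor, was listed at 0 FPKM in each luminous library and stood at 1.31, 1.48 and 0.0687 FPKM in the others. The other gene of that name, PAX6 RI129_007734, ran the other way, at 1.06, 0.821 and 0.851 FPKM against 0.445, 0.386 and 0.143 FPKM. Both were named after their values were seen and are below the minimum. The part of eye cells in the result for UVOP RI129_009878 was not tested.

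Neuron markers were called in both directions. Of 9 tested, 1 was higher and 3 lower, or 44.4% beside 26.6% of all tested genes, and the summed level was 240.5 to 243.9 FPKM in the luminous libraries and 258.8 to 276.2 FPKM in the others. No neuron marker was at 0 in every library. Gad1 (RI129_002037), which makes the transmitter GABA, fell from 26.7 ± 12.0 to 1.37 ± 0.741 FPKM (SD, n = 3). The calcium channel gene cac (RI129_000474) fell by 1.41 on the log2 scale and Syt1 (RI129_007358), a calcium sensor of synaptic vesicles, by 1.04. The gene elavl3 (RI129_011836), of a family of neuronal RNA-binding proteins, rose from 37.8 ± 6.14 to 101 ± 7.17 FPKM. All 4 calls held under every setting in which the gene was tested; cac was below the minimum of 5 FPKM used in 1 of them, which left 3. The part of neurons in the results for Clk and for UVOP RI129_009878 was not tested.

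Retinal, a retinoid made from carotenoids, is the chromophore of opsins. Genes matched by words tied to retinoids and carotenoids were mostly lower where they were called, and not all of them make or carry retinal. Of 56 tested genes so matched, 6 were higher and 18 lower, or 42.9%, with a median log2 difference of -0.52. Of all tested genes, 26.6% were called, 9.63% higher and 17.0% lower. Most matches are retinol dehydrogenases and genes named after pinta, a retinol-binding protein of Drosophila, families with many other substrates. Scpep1 (RI129_000271), a carboxypeptidase named for its response to retinoids, fell from 175 ± 97.5 to 6.46 ± 2.27 FPKM (SD, n = 3), and RDH14 (RI129_000722) from 44.8 ± 17.8 to 2.97 ± 3.13 FPKM. The gene SCARB1 RI129_012746, of a family of scavenger receptors that take up carotenoids, fell from 318 ± 64.3 to 66.2 ± 36.6 FPKM, while SCARB1 RI129_002050 rose from 218 ± 35.1 to 367 ± 51.3 FPKM. Genes named pinta went both ways, with RI129_004809 higher by 1.51 and RI129_004630 lower by 1.09 on the log2 scale.

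The gene ninaB codes for the enzyme that cleaves carotenoids into retinal. It has 5 copies by name, described here after their values were seen, and all 5 had lower luminous means. The copy ninaB RI129_004056 fell from 133 ± 15.5 to 61.7 ± 19.9 FPKM (SD, n = 3; limma adjusted p = 0.0108), and ninaB RI129_004057 from 112 ± 9.24 to 68.2 ± 15.8 FPKM (limma adjusted p = 0.0203). The copies ninaB RI129_004021 and ninaB RI129_003931 were not called (limma adjusted p = 0.0506 and 0.154), and ninaB RI129_003930 was below the minimum, at 0.510 against 0.826 FPKM. Copies of 1 name may share reads, and how the counting divided them is not known.

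**Figure D5:**
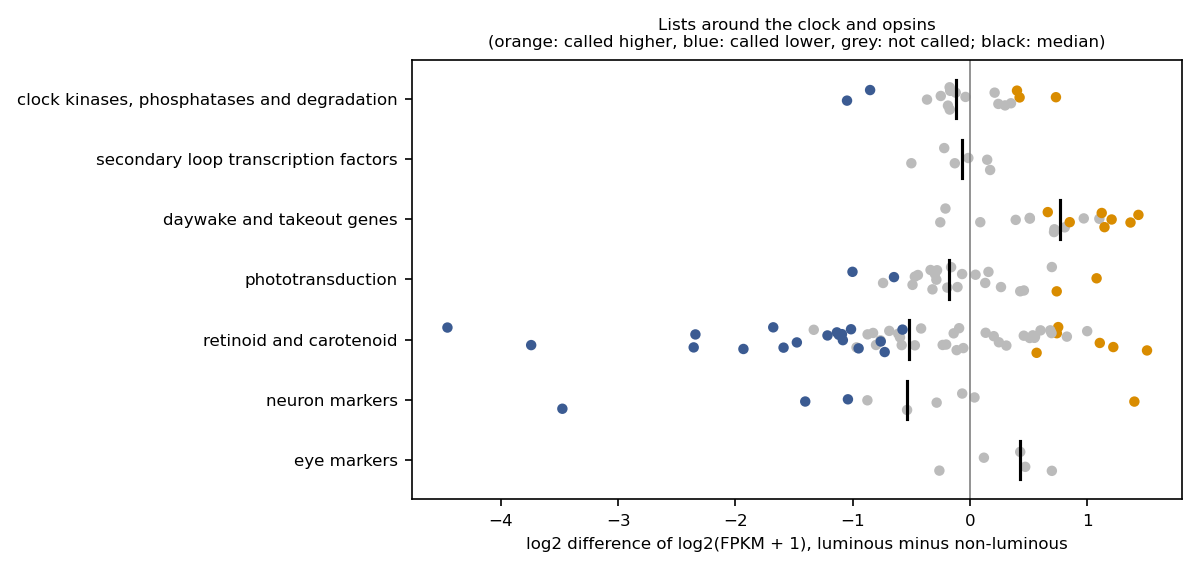
Difference between organs in log2(FPKM + 1), luminous mean less non-luminous mean, for each tested gene (point) of 7 lists around the clock and opsins, coloured by its limma call, with the list's median (black line). Daywake and takeout genes lie mostly above 0 with 7 called higher, retinoid and carotenoid genes spread widely with 18 called lower, and no secondary loop or eye gene is called.

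Genes matched by the names of enzyme families with members that modify PERIOD and TIMELESS were called in both directions. Whether each of them acts on the clock was not tested. Of 17 tested kinases, phosphatases and related proteins, 3 were higher and 2 lower, or 29.4% beside 26.6% of all tested genes, with a median log2 difference of -0.12. The gene gsk3b (RI129_007247), for glycogen synthase kinase-3, known in Drosophila as the TIMELESS kinase shaggy, was higher in the luminous organ by 0.73 on the log2 scale, at 140 ± 38.0 against 82.1 ± 11.5 FPKM (SD, n = 3; limma adjusted p = 0.0387). Casein kinase II subunit beta (RI129_000609) was higher by 0.42 and the phosphatase subunit gene PPP2R3B (RI129_005512) by 0.40. These 3 calls were each lost under at least 7 settings. CSNK1G1 (RI129_012171), a casein kinase I of the gamma class, fell from 56.4 ± 9.89 to 26.4 ± 0.0976 FPKM (limma adjusted p = 0.00391), and PPP2R3C (RI129_003602) fell by 0.85 on the log2 scale, both under every setting run. CSNK1E (RI129_009857), the relative of the PERIOD kinase doubletime and chosen after its values were seen, averaged 109 ± 7.88 against 129 ± 1.12 FPKM, without a call (limma adjusted p = 0.111).

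Transcription factor genes matched by names tied to a second loop, which feeds back on Clk, gave no call. Whether each of them acts in that loop in this firefly is not known. Of 6 tested, 0 passed with limma and 1 had an unadjusted p under 0.05, while 1 passed with no trend or with voom. That gene was Hr3 (RI129_002222), described as a nuclear hormone receptor, at 5.93, 5.40 and 6.13 FPKM against 9.20, 8.95 and 7.81 FPKM. The organs did not overlap for it, and its log2 difference was -0.50 (limma adjusted p = 0.0575). It and the genes that follow were named after their values were seen. The repressor gene cwo (RI129_006712) stood at 109 ± 7.98 and 97.98 ± 4.23 FPKM (SD, n = 3), and the bZIP gene Hlf (RI129_009223) at 74.3 ± 2.53 and 66.2 ± 7.91 FPKM. Both genes named nfil3, RI129_011653 and RI129_011654, relatives of the Clk repressor vrille, overlapped between the organs, at 54.2 ± 6.82 and 54.9 ± 8.33 FPKM for the first. Levels of cwo, Hlf and nfil3 were thus above those of the 5 genes described as clock genes, TIMELESS among them, in both organs.

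Genes matched by names tied to the output of the clock were all higher in the luminous organ where they were called. Whether each of them is an output of the clock in this firefly was not tested. Of 23 tested genes, 7 were higher and 0 lower, or 30.4% beside 26.6% of all tested genes (9.63% higher and 17.0% lower), with a median log2 difference of 0.66. All 7 belonged to the daywake and takeout genes, named after fly proteins of a family that carries small lipids, and earlier results of these data showed this for daywake. The most abundant was dyw RI129_008645, at 467, 425 and 599 FPKM against 225, 235 and 182 FPKM. The gene to RI129_001451 rose from 52.4 ± 2.57 to 156 ± 83.9 FPKM (SD, n = 3). Of the 18 tested daywake and takeout genes, 13 were highest of all libraries in luminous replicate 3, beside 17.4% of all tested genes. That share also counts genes highest in a non-luminous library, while this list leans to the luminous organ. Of all tested genes, 2019, 911 and 1718 were highest in luminous replicates 1, 2 and 3. Luminous replicate 3 was the library with the highest Clk and per, and also with the lowest CRY1 and the lowest luminous value of TIMELESS. A link between these levels and the daywake and takeout genes was not tested. Of the output genes, 4 were called without luminous replicate 3, 2 without non-luminous replicate 1, 1 without non-luminous replicate 3 and 12 without luminous replicate 1. The receptor for the clock neuropeptide PDF, Pdfr (RI129_005374), also named after its values were seen, averaged 13.2 ± 0.442 against 11.8 ± 2.95 FPKM, without a call (limma adjusted p = 0.550).

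By the deposited annotation, 58 other genes belonged to KEGG pathways naming circadian rhythm or entrainment. Of the 55 tested, 8 were higher and 5 lower, or 23.6%, and of 104 tested genes with a Gene Ontology term naming circadian, 14 were higher and 10 lower, or 23.1%. Both shares are below the 26.6% of all tested genes. The 14 higher genes include the called daywake and takeout genes counted above, so this is not a separate count. The gene takeout RI129_012436 was among the 5 described genes whose pattern over the 6 libraries was most like that of Clk, with a Pearson's r of 0.995 of log2(FPKM + 1). Others among them were 4cl3 (RI129_007365, 0.995), Cks30A (RI129_003445, 0.993) and C12orf57 (RI129_009304, 0.993). The genes most like PDE6D, the member with the highest mean, were Bphl (RI129_000643, 0.993), AGO3 (RI129_010867, 0.993), wdr45b (RI129_009810, 0.979), RAB8A (RI129_002529, 0.978) and SLC25A46 (RI129_012147, 0.962). Both sets are the best over 6 libraries among the tested genes outside the members that have a description. Those most like Clk share its organ difference. Neither set is given as more than a description.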

How the data were processed

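Per the labels' protocols, total RNA was isolated by Trizol and sequenced from strand-marking mRNA libraries. The submitters' processing notes name Trimmomatic, HISAT2, HTSeq and R 3.2.0 with no role. Genome build, gene positions, strand setting and filters: not given in the sources used here. The authors deposited FPKM for 12533 genes and 6 libraries. Low FPKM values step by the worth of 1 read, which gave read numbers and library totals. Reads were whole within 0.001 for 99.99% of 11795 genes above 0 in at least 3 libraries, and 95.4% of the gene lengths so found were multiples of 3, so FPKM is scaled mainly to coding length. Counting intervals and floors cover counting error only.

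The test was limma 3.58.1 under R 4.3.3 (lmFit, eBayes with trend, two-sided, no block) on log2(FPKM + 1), for genes averaging 1 FPKM or more, with Benjamini-Hochberg adjustment over 9863 genes and calls under 0.05. A fold on this scale understates the change of low genes. Scripts were tested on simulated data. Named genes are all members, up to 4 called genes per list and direction with the lowest adjusted p, and the 5 genes most like Clk and the highest member, of which 1 is not reported here. Genes named outside this rule are marked in the text. Members and lists were chosen with earlier results of these data known. Lists were matched by words and take in some genes that do not belong, such as Ykt6 among neuron markers and the peptide deformylase Pdf among output genes.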

Additional observations from a re-analysis of the deposited data

How the results depend on the processing

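The call for Clk held under 10 of 17 settings, with adjusted p from 0.0183 to 0.140 and differences of 0.47 to 0.95, and per, tim, TIMELESS and CRY1 were called under none of those run. CRY1 changed sign without luminous replicate 2 (-0.18) and without non-luminous replicate 1 (-0.07), against up to 0.24 without luminous replicate 3, and PDE6D after quantile normalization (0.0091). The count of members called, 1, was 0 with the replicate block (adjusted p of Clk 0.103), 2 with voom on genes with at least 10 reads, added after seeing the data, and 0 to 1 with a library left out. With no filter it was 1, UVOP RI129_009878 in place of Clk. The replicate numbers share no origin in the labels, and the deviations of same-numbered libraries correlated at -0.11, -0.01 and -0.17, so they were not treated as pairs; the block gave 1996 calls over all genes. Called genes over all were 2626, and 1119 to 2648 with a library left out. The share of calls that were higher was 36.2% for deposited values, 46.3% for median-of-ratios and 53.8% for quantile normalization.

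Of the kinase and phosphatase genes matched by family names, 5 were called, 3 with no filter, 2 with no trend, 3 with the replicate block and 2 to 3 with a library left out. Of phototransduction genes 4 were called, 2 with the block, 7 with either voom fit and 0 to 5 with a library left out. Output genes called were 1 to 12, retinoid genes 12 to 28, neuron markers 4 to 5, secondary loop factors 0 to 0 and eye markers 0 to 1 with a library left out. Eye markers called were otherwise 2 with no filter, 1 after median-of-ratios rescaling, 2 after quantile normalization, 1 with no trend and 1 with either voom fit. Secondary loop factors called were 1 with no trend and 1 with voom. The differences of the ratios of Clk and per to tim ranged from 1.07 to 1.21 and from 0.82 to 1.35 with a library left out. The causes were not tested. Fits with 1 library fewer have less power. Depth limits the 4 genes below 1 FPKM, which had 6 to 114 reads over the 6 libraries.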

Other observations

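Genes that the deposited annotation ties to light sensing, other than the members, were called in both directions. By Gene Ontology more were lower than higher, as over all tested genes. Of 63 tested genes with an ontology term naming phototransduction or rhodopsin, 6 were higher and 16 lower in the luminous organ, or 34.9%, with a median log2 difference of -0.22. Of all 9863 tested genes, 26.6% were called, 9.63% higher and 17.0% lower. The share of all calls that were higher was 36.2% for deposited values and 53.8% after quantile normalization, so this direction depends on the scaling. Of 20 tested genes in a KEGG pathway naming phototransduction, 3 were higher and 2 lower, with a median of -0.09, the same as over all tested genes. The lists overlap with the word lists above and add no independent evidence.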
